A study of Homo sapiens with 54 samples.

Results

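FKBP5 lies on the minus strand of chromosome 6, at chr6:35573590-35728583 in RefSeq's annotation of GRCh38.p14, and its span covers 155 kb. All rows of 16 chromatin immunoprecipitation (ChIP-seq) peak lists that shared at least 1 bp with this span, extended by 100 kb on either side, were collected. They numbered 314 of 518593 regions. The gene was selected on its progesterone receptor (PR) regions after R5020 in these same lists, and its regions were chosen by position, so their counts are a description with no test. The cells were T47D, an established human breast cancer line that is positive for the estrogen receptor and PR. They were given ethanol (vehicle) or the synthetic progestin R5020 for 1 h, and all came from this 1 line, grown in medium with serum. The antibodies recognised PR, histone H3 acetylated at lysine 27 (H3K27Ac, a mark of active promoters and enhancers) and proteins of RNA polymerase III. The latter were Maf1, which represses this polymerase, Brf1, which helps to recruit it, and its subunits POLR3A, POLR3C, POLR3G and POLR3GL. Each antibody and treatment had 3 libraries and 1 list, and the 6 input libraries had no list here.

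FKBP5 encodes FKBP51, a peptidyl-prolyl isomerase that binds Hsp90 in complexes with steroid receptors and lowers the affinity of the glucocorticoid receptor for its hormone. The gene is a known target of progesterone, glucocorticoid and androgen receptors, which bind DNA elements far from its starts, within introns and upstream. These receptors recognise the same palindromic element, ACANNNTGT with a G 2 bases before it and a C 2 bases after it. Acetylation of H3 around such sites accompanies recruitment of coactivators. Maf1 acts by binding the polymerase itself, and Brf1 is the part of the initiation factor TFIIIB used at most transfer RNA genes.

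The RefSeq promoter table gave 2 starts for FKBP5. The distal start, at base 35728583, is the end of the gene span, and the proximal start, at base 35688915, lies 39.7 kb further into the gene. Their promoters are shown because R5020 PR regions covered both and R5020 Maf1 regions overlapped part of each. The summits of these PR regions lay outside the printed bases, 1630 bp into the gene from the distal start and 1132 bp from the proximal one. Each is printed from 250 bases before the start to the first 6 bases after it, on the minus strand. The distal promoter is chr6:35728578-35728833 and the proximal one chr6:35688910-35689165. Capitals mark AGAACA, the complement of TGTTCT, a 6-base arm of the receptor element, in the distal sequence. In the proximal sequence they mark the GC box GGGCGG and the CCAAT box.
distal: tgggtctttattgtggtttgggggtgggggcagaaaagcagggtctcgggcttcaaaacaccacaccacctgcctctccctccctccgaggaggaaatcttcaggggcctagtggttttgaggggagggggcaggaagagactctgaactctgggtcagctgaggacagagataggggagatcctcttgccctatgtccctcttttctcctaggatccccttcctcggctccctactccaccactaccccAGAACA
proximal: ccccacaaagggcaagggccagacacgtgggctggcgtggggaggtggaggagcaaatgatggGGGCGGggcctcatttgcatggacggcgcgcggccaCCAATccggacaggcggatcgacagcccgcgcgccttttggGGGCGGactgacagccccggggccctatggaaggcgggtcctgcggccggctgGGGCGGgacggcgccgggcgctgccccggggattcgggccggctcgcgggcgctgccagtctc
The 2 promoters differ in base composition. Over the whole 300-base window the distal one had 55.7% G and C and 3 CpG dinucleotides, against a median of 14 CpG over 35116 RefSeq promoters. The proximal one had 76% G and C and 38 CpG, more than 90.1% of promoters. It held GGGCGG at 6 places, 3 of them in the stretch printed, and CCAAT at 1 place. On both strands GGGCGG was present in 45.0% of all promoters and CCAAT in 34.6%. TGTTCT began at the distal start itself and was present in 14.8% of all promoters. Neither FKBP5 window held ACANNNTGT, present in 5.37% of promoters, or its longer form with the flanking G and C, present in 0.390%. TGTTTAC, a forkhead motif found in 3.42% of promoters, and TATAAA, found in 11.5%, were also not in these windows. No genome sequence was used here, so the ChIP-seq regions themselves were not searched.

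With vehicle, 5 PR regions lay in the window, and with R5020 there were 81. The ratio of 16.2 was below that of the whole lists, 26.0, which held 6663 and 173129 PR regions. With both lists limited to their top 6663 by -log10 q, 5 vehicle and 8 R5020 regions lay in the window, a ratio of 1.6. Maf1 had 4 vehicle and 24 R5020 regions, a ratio of 6 against 7.44 for all Maf1 regions, and among the top 3049 regions of each list the counts were 4 and 5. H3K27Ac regions numbered 43 and 59, a ratio of 1.37 against 1.27. POLR3G had 45 and 49 regions, a ratio of 1.09 against 0.802 for its whole lists. POLR3A had 1 and 1, a ratio of 1 against 1.52. Brf1 had 0 and 2, from whole lists of 370 and 1173 regions. POLR3C and POLR3GL had no region in the window in either treatment, like the median protein-coding gene. Their whole lists, vehicle first, held 673 and 699 regions for POLR3C and 1104 and 603 for POLR3GL. Lists carry no replicate values and no sequencing depth, so none of these differences could be set against a spread between replicates. A longer list and deeper libraries cannot be told apart here.

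Some facts of the whole series bear on these values. By the titles, 4 libraries were R5020 but carried an ethanol tag, namely replicate 1 of POLR3G, replicate 1 of POLR3GL, and replicates 1 and 2 of POLR3C. The POLR3G values with R5020 below rest on the titles. H3K27Ac regions lay within 1 kb of 9 of 9 luminal breast genes with vehicle and of 8 of 9 with R5020, the exception being TFF1. Of 9 genes of basal cells or other cell types, 4 were acetylated with vehicle and 6 with R5020. CD44, COL1A1, KRT17 and TP63 were acetylated in both treatments, and PECAM1 and VIM with R5020 only. KRT5, KRT14 and the leukocyte gene PTPRC had no such region in either treatment.

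**Figure D1:**
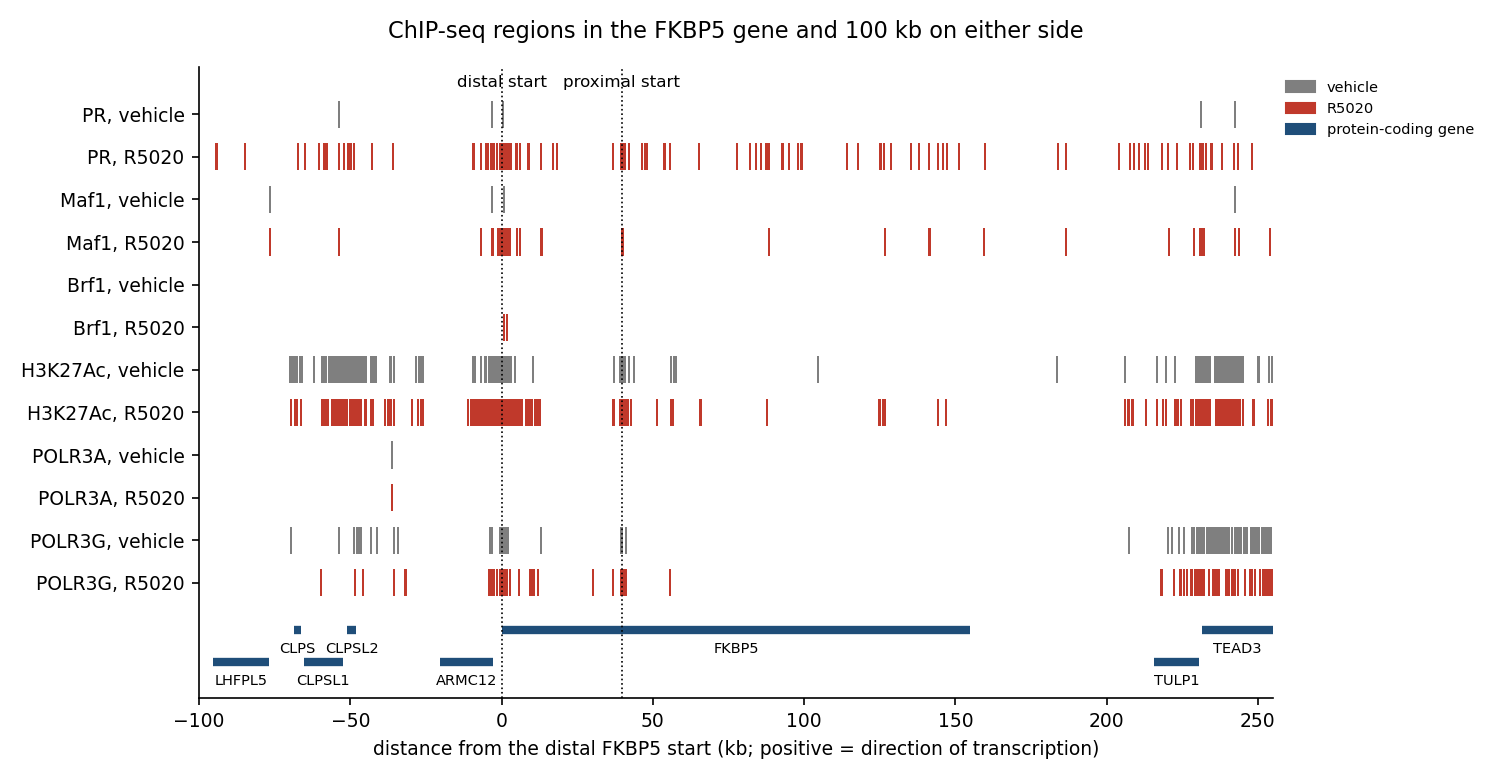
Regions of 6 antibodies in the FKBP5 span and 100 kb on either side, by distance from the distal start in kb, with vehicle in grey and R5020 in red; blue bars are protein-coding genes, and the narrowest regions are widened to be visible. The 5 vehicle PR regions lie at the distal start, at ARMC12, CLPSL1 and TEAD3, while the 81 R5020 PR regions run through the gene and both flanks.

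Before hormone, PR was found at 5 places. Fold enrichment, the authors' ratio of ChIP signal at a region's summit over background, is given for each and can be compared only within a list. The region with the highest -log10 q, the authors' measure of confidence, was chr6:35731624-35732224 (fold 6.65), where the lncRNA gene LOC285847 overlaps ARMC12, which encodes an armadillo-repeat protein. Next was chr6:35727913-35728376 (6.42), with its summit 442 bp into FKBP5 from the distal start. Within TEAD3, a transcription factor gene of the Hippo pathway, lay chr6:35486166-35486570 (6.94). The region chr6:35496929-35497654 (2.73) overlapped the edge of the TEAD3 span nearest the gene TULP1 and had its summit outside that span. The fifth, chr6:35782497-35782701 (5.00), was within CLPSL1, a gene related to pancreatic colipase. All 5 overlapped an R5020 PR region, and none lay in the 115 kb of FKBP5 downstream of the proximal start.

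After 1 h of R5020, PR regions covered 38.6 kb of the 355 kb window, or 10.9% of it. Their folds ran from 1.96 to 47.1 with a median of 8.60, against 5.90 for all R5020 PR regions. The median region stood at percentile 67.0 of its list by fold and at 65.4 by -log10 q, where the whole list has 50. The median length was 323 bp against 280 bp. The FKBP5 regions were thus spread over most of the range of the list, with a middle above that of the list.

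The 4 regions of highest -log10 q lay around the distal start. The first, chr6:35722305-35722949 (fold 47.1, -log10 q 364), had its summit 5922 bp into the gene. The second, chr6:35725147-35729454, was 4308 bp long, covered the distal promoter and had a fold of 34.5. It was the 10th longest of 173129 regions. Upstream of the gene, chr6:35729628-35730416 (33.3) lay in LOC285847, and chr6:35730892-35732557 (38.8) reached into ARMC12 and contained the vehicle region of highest -log10 q. A further region of the first 10, chr6:35723315-35724266 (43.0), filled part of the space between the first and the second. The vehicle regions at the distal start and at ARMC12 lay within the second and the fourth.

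Deep in the gene, 2 regions stood among the first 10. They were chr6:35639905-35641097 (31.9), 48664 bp downstream of the proximal start, and chr6:35601719-35602403 (35.0), 86823 bp downstream of it. Neither overlapped a vehicle PR region. The remaining 3 of the first 10 were outside FKBP5. One was chr6:35541934-35542409 (31.8), in no RefSeq gene, downstream of FKBP5. The others were chr6:35782212-35782820 (30.1) in CLPSL1 and chr6:35486183-35486914 (32.8) in TEAD3, and both overlapped a vehicle PR region. The proximal start itself was covered by a weaker but long region, chr6:35687619-35689295 (fold 13.6, 1677 bp).

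**Figure D2:**
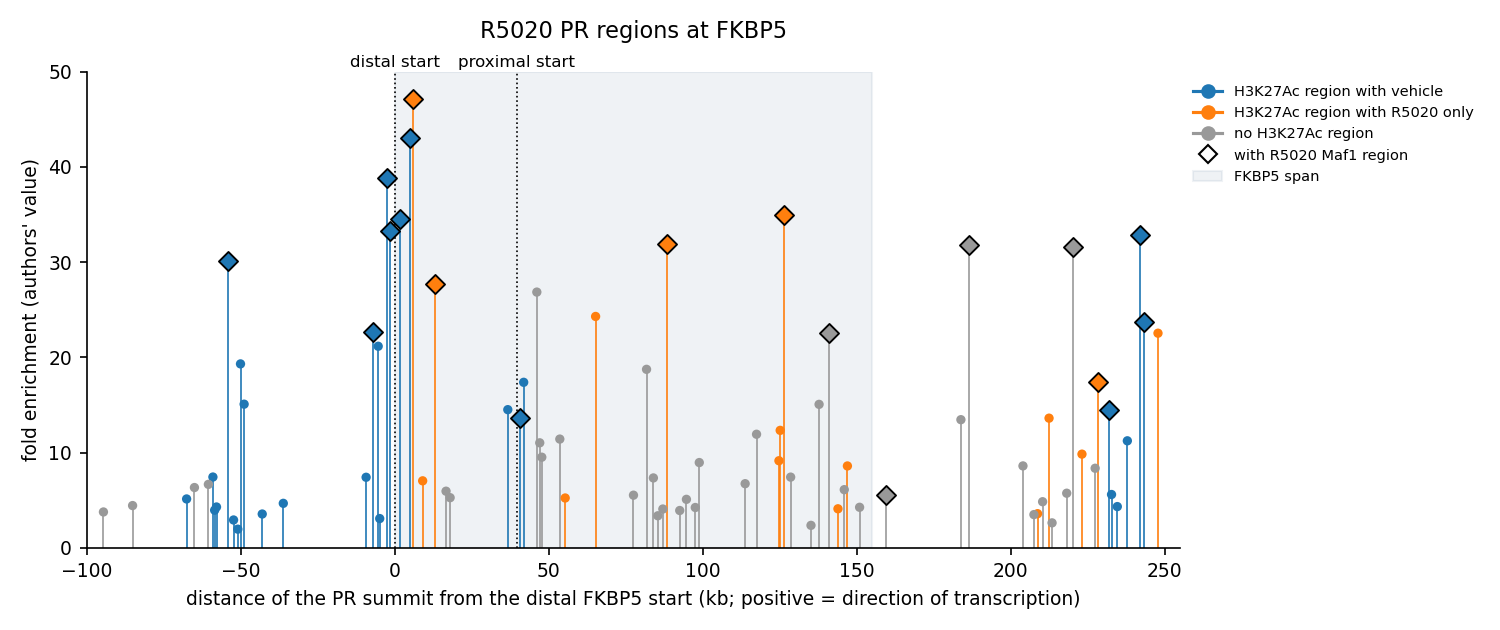
Fold enrichment of each of the 81 R5020 PR regions against the distance of its summit from the distal start in kb; colour gives the H3K27Ac regions it overlaps, and diamonds mark an overlap with R5020 Maf1. The highest point is at 47.1, just inside the distal start, and the regions above 30 are all diamonds.

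By segment, R5020 PR regions were about equally dense. The downstream flank held 21 regions, the gene from its end to the proximal start 31, the stretch between the starts 8, and the upstream flank 21. This is 2.10, 2.69, 2.02 and 2.10 regions per 10 kb. The share of bases under a PR region was less even, with 19.7% between the starts against 9.20%, 10.3% and 9.65% in the downstream flank, the gene below the proximal start and the upstream flank. Within 10 kb of the distal start there were 10 PR regions with R5020 and 2 with vehicle. Of 22199 starts of protein-coding genes, 99.0% had fewer R5020 PR regions at this distance and 93 had more, with a median of 2. Within 10 kb of the proximal start there were 6, more than at 88.7% of starts, and none with vehicle. Because FKBP5 was selected on its R5020 PR regions, the places of both starts are descriptions with no test.

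In the 300-base promoter window, PR was shared with many genes. Both FKBP5 promoters overlapped an R5020 PR region, as did 43.2% of all promoter windows of protein-coding genes. Both overlapped R5020 Maf1 (27.3% of all) and R5020 H3K27Ac (62.4% of all). Neither overlapped an R5020 Brf1 region (0.563% of all), and neither window itself held PR or Maf1 with vehicle.

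H3K27Ac was present at both starts before hormone, and after R5020 it covered more of the gene. In the whole window the acetylated length was 58.7 kb with vehicle and 75.6 kb with R5020, a ratio of 1.29 against 1.03 for all H3K27Ac regions. Between the starts it was 5.57 kb and 12.8 kb, a ratio of 2.30. In the gene below the proximal start it was 3.66 kb and 7.33 kb, a ratio of 2.00. The downstream flank had 18.7 kb and 25.1 kb (1.34), and the upstream flank had 30.8 kb and 30.4 kb (0.988). With other filters and with equal numbers of top regions, the ratio was 2.07 to 2.30 between the starts, 1.80 to 2.20 below the proximal start, 1.05 to 1.45 downstream and 0.948 to 0.983 upstream.

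**Figure D3:**
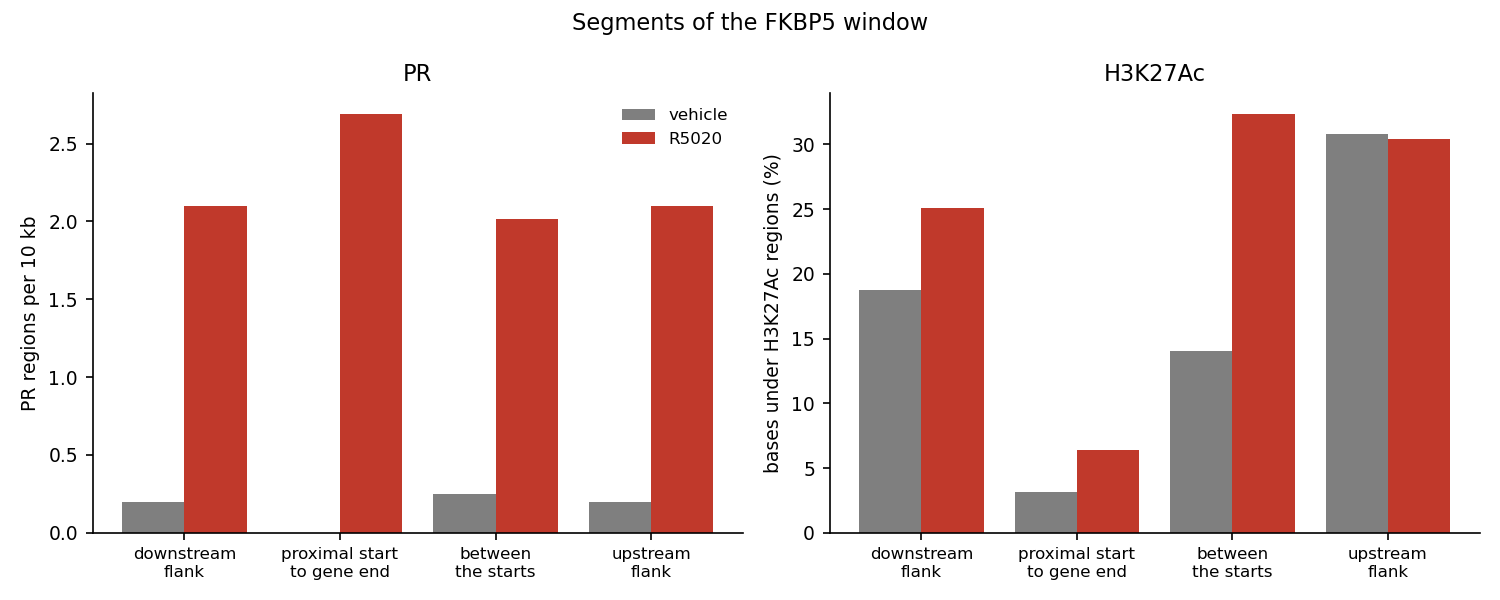
PR regions per 10 kb and the percentage of bases under H3K27Ac regions in 4 segments of the window, 1 bar per peak list, vehicle in grey and R5020 in red. PR regions with R5020 number 2.02 to 2.69 per 10 kb in every segment, whereas the ratio of acetylated length between treatments is highest in the 2 segments of the gene (2.30 and 2.00).

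Around the distal start, 1 long H3K27Ac region of the R5020 list overlapped 6 shorter vehicle regions. The vehicle regions summed to 10944 bp, and the longest, chr6:35725264-35733223, had 7960 bp and a fold of 14.1. The R5020 region, chr6:35722275-35738933, had 16659 bp and a fold of 25.6, and was the 69th longest of 112543. It contained 9 of the R5020 PR regions and 8 of the R5020 Maf1 regions, among them the 5 PR regions described above. Within 10 kb of the distal start, acetylated length was 11.0 kb with vehicle and 18.9 kb with R5020, 7.87 kb more. Only 7 of 22199 starts had a larger difference, and the median difference was 0. Among equal numbers of top regions in both lists the difference was again 7.87 kb, with 4 starts above it.

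By fold, both starts stood higher in the R5020 list than in the vehicle list. At the proximal start the H3K27Ac region was chr6:35687478-35688951 with vehicle (fold 15.8), the 3580th of 88870, and chr6:35686490-35688944 with R5020 (32.9), the 33rd of 112543. At the distal start the main vehicle region was 5125th and the R5020 region 570th. Within 10 kb of the proximal start the acetylated length was 3.27 kb and 4.88 kb. The difference of 1.60 kb was larger than at 94.9% of starts.

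On the flanks, the strongest acetylated regions were present in both treatments. Within TEAD3, the vehicle region chr6:35483960-35493190 (16.6) overlapped the R5020 region chr6:35484012-35492812 (17.9). Across the edge of the TEAD3 span and into TULP1, the vehicle region chr6:35495195-35499452 (19.7) overlapped the R5020 region chr6:35494081-35499461 (30.5). The vehicle region chr6:35467124-35474294 (17.1) extended past the edge of the window. On the other side, a vehicle region of 12737 bp, chr6:35773188-35785924, over CLPSL2 and part of CLPSL1, was overlapped by 7 separate R5020 regions, the longest of 4590 bp. Of these, chr6:35775544-35779039 (17.7) was the fifth of the window by -log10 q. A long region split into pieces here, whereas at the distal start pieces were joined.

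**Figure D4:**
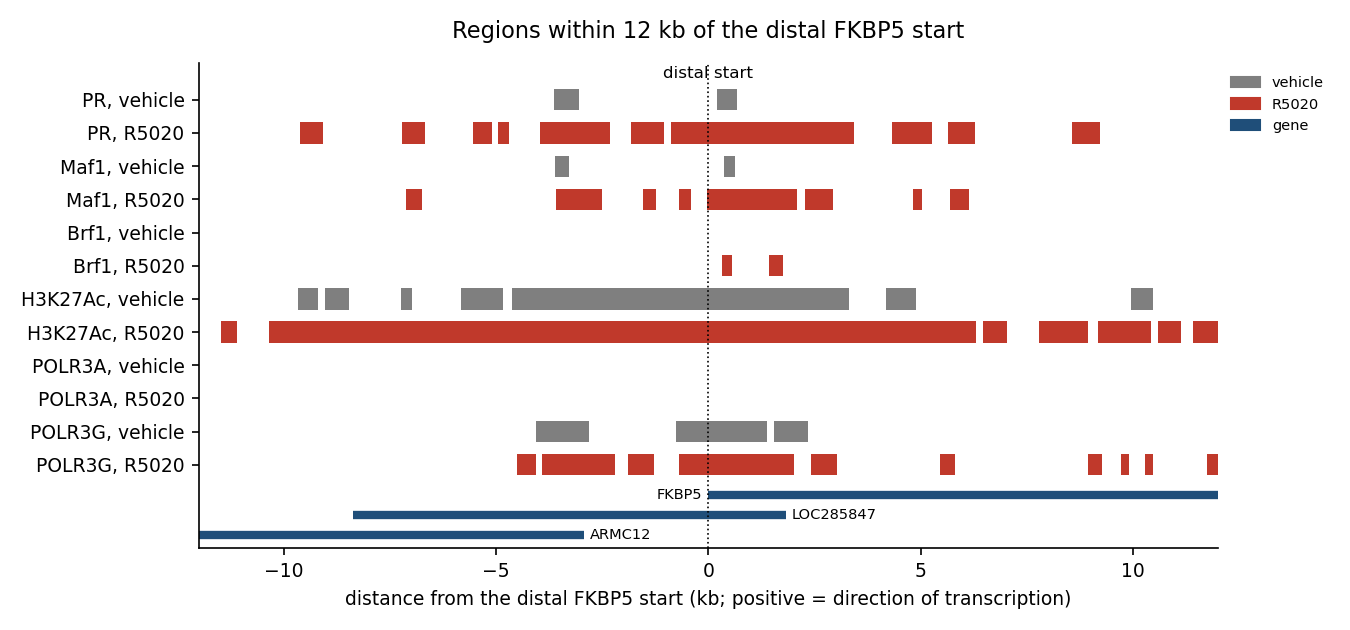
Regions of 6 antibodies within 12 kb of the distal FKBP5 start, by distance in kb, with vehicle in grey, R5020 in red and genes in blue. With R5020, 1 H3K27Ac region of 16659 bp spans 9 PR regions, while with vehicle 6 shorter H3K27Ac regions and 2 PR regions lie in the same stretch.

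Of the 81 R5020 PR regions, 44 overlapped R5020 H3K27Ac (54.3%, exact binomial 95% interval 42.9 to 65.4). Among all R5020 PR regions the share was 28.7%. It depended on the processing, with 33.3% (21.7 to 46.7) against 19.5% of all at a fold of at least 5, and 6.17% against 4.80% when each region had to share 50% of its length. Counted by summits within 250 bp, it was 7.41% against 11.6% of all, below the background and below the 8.64% for vehicle H3K27Ac. These intervals cover the counting of regions only, and neighbouring regions are not independent. Vehicle H3K27Ac was found at 28 of the 81 (34.6%, 24.3 to 46.0), against 26% of all, which lies within the interval. The remaining 16 overlapped H3K27Ac with R5020 only (19.8%, 11.7 to 30.1), a class that made up 6.04% of all R5020 PR regions. At a fold of at least 5 this class was 8.33% (2.76 to 18.4) against 3.90%, and by summits within 250 bp 4.94% (1.36 to 12.2) against 6.20%, and both intervals included the background.

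The classes were unevenly placed. In the upstream flank, 17 of 21 PR regions overlapped vehicle H3K27Ac and 4 overlapped none. In the gene below the proximal start, 2 of 31 did so, 8 overlapped H3K27Ac with R5020 only and 21 overlapped none. Between the starts the counts were 3, 3 and 2, and in the downstream flank 6, 5 and 10. All 16 regions acetylated with R5020 only were thus in the gene or downstream of it. They included the highest of all, chr6:35722305-35722949, and the 2 strong regions deep in the gene, where no vehicle H3K27Ac region was found. The R5020 H3K27Ac regions at these 2 were weak. They were chr6:35640880-35641115 (fold 3.74, -log10 q 4.73) and chr6:35601425-35602110 (fold 4.50, -log10 q 7.01). The first of them did not reach the summit of its PR region.

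Maf1 was found where PR was strongest. It overlapped 19 of the 81 PR regions (23.5%, 14.8 to 34.2), against 10.2% of all R5020 PR regions. When each region had to share 50% of its length, the share was 4.94% (1.36 to 12.2) against 2.89%. PR regions with Maf1 had a median fold of 31.6 and the 62 without it 6.50. In the whole list the medians were 26.1 and 5.61, so this ordering was a feature of the series as well. All of the first 10 PR regions overlapped a Maf1 region. By segment, 7 of the 19 were downstream of the gene, 4 below the proximal start, 4 between the starts and 4 upstream.

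From the side of Maf1, 22 of 24 regions overlapped R5020 PR (91.7%, 73.0 to 99.0), while 82.1% of all R5020 Maf1 regions did. The exceptions were chr6:35474638-35474906, near the edge of TEAD3 away from TULP1, and chr6:35805204-35805413, at LHFPL5, a gene for a membrane protein of hair cells. The summits of Maf1 and PR lay a median of 37.5 bp apart, and 16 of 22 were within 100 bp. Over all such pairs the median was 40 bp and 69.4% were within 100 bp. R5020 H3K27Ac was present at 17 of the 24 Maf1 regions (70.8%, 48.9 to 87.4) and at 76.5% of all Maf1 regions.

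The leading Maf1 region lay at the distal start. It was chr6:35726499-35728618, with 2120 bp, a fold of 27.4 and a -log10 q of 215. In a list of 22683 it ranked 44th by -log10 q, 63rd by fold and 93rd by length. Its summit was 1603 bp into the gene, 27 bp from that of the long PR region. The next 4 were all within 10 kb of the same start: chr6:35729810-35730120 (9.50), chr6:35731082-35732184 (10.7), chr6:35722456-35722899 (10.9) and chr6:35725644-35726301 (11.4). The 2 strong PR regions deep in the gene had Maf1 at chr6:35640078-35640482 (7.42) and chr6:35601953-35602143 (6.64). The proximal start had chr6:35688345-35688974 (6.71), and TEAD3 had chr6:35486266-35486588 (6.57). Maf1 at the distal start was therefore far above the other Maf1 regions of the gene within this list.

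With vehicle, Maf1 was found at 4 places, all present again with R5020. They were chr6:35805244-35805475 (4.92) at LHFPL5, chr6:35731863-35732189 (3.85) at ARMC12, chr6:35727947-35728213 (3.34) at the distal start and chr6:35486244-35486508 (3.49) in TEAD3. All but the one at LHFPL5 coincided with a vehicle PR region.

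**Figure D5:**
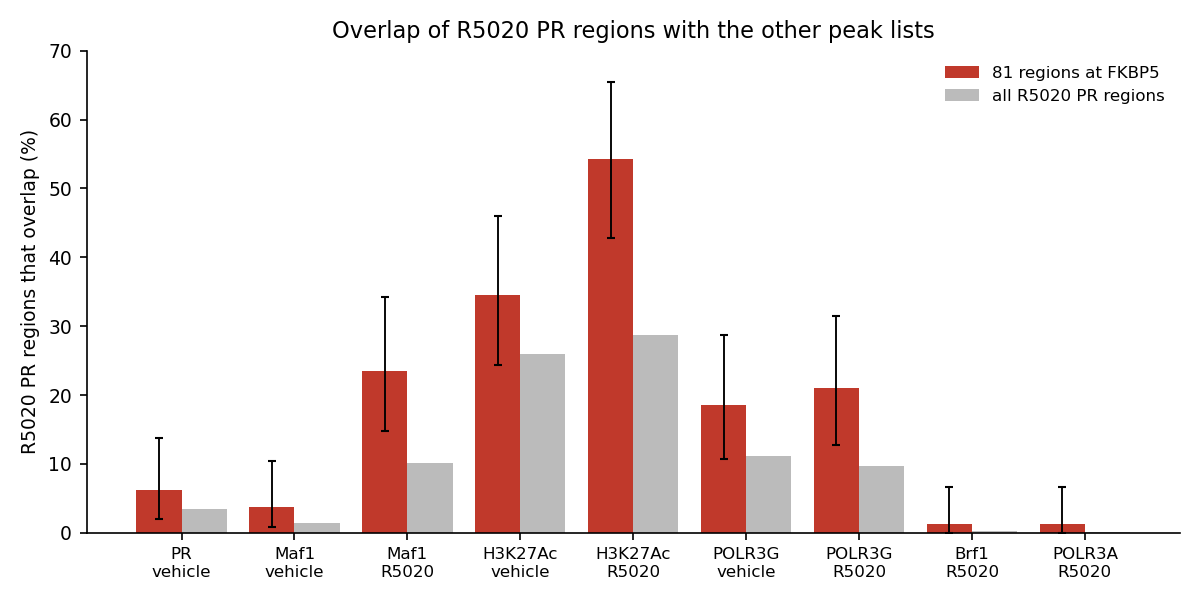
Percentage of R5020 PR regions that overlap a region of each other list, for the 81 at FKBP5 (red, with exact binomial 95% intervals) and for all 173129 (grey). The red bar for R5020 H3K27Ac is at 54.3% against 28.7% and that for R5020 Maf1 at 23.5% against 10.2%, while for vehicle H3K27Ac the grey bar lies within the interval.

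Few regions of Brf1 and POLR3A were listed in the window, as at most genes. With R5020 the median protein-coding gene, in a window built in the same way, had 0 of each. FKBP5 stood above 97.8% of genes for Brf1 and 93.6% for POLR3A, and above 97.8% and 94.0% per 100 kb of window. Brf1 was listed with R5020 at chr6:35728021-35728268 (4.82) and chr6:35726823-35727164 (4.21), 371 and 1675 bp into FKBP5. Both lay inside the long PR region, so 1 of 81 PR regions overlapped Brf1 (1.23%, against 0.288% of all). By -log10 q they ranked 1022nd and 1015th of 1173, near the end of the list. No POLR3A region accompanied them. POLR3A, the largest subunit of the polymerase, had 1 region, in the upstream flank and outside FKBP5. It was chr6:35764778-35765061 with vehicle (fold 8.70, percentile 43.5 of its list) and chr6:35764826-35765196 with R5020 (3.98, percentile 41.9). These regions lay 880 and 745 bp from the pseudogene CMPK1P1. A weak R5020 PR region, chr6:35764624-35764844 (4.67), overlapped it, the only one of the 81 (0.126% of all R5020 PR regions did).

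POLR3G, a subunit that an isoform, POLR3GL, can replace in the polymerase, was more frequent than POLR3A. With R5020 the FKBP5 window held 49 regions, against a median of 3 over protein-coding genes. It stood above 90.4% of genes by count and 84.1% per 100 kb of window. POLR3G folds ran from 2.03 to 5.52 with vehicle and from 2.20 to 6.03 with R5020. R5020 POLR3G regions overlapped 17 of 81 PR regions (21.0%, 12.7 to 31.5), against 9.73% of all. The strongest in both treatments was at the edge of TEAD3 away from TULP1, chr6:35467675-35473721 with vehicle (5.52) and chr6:35471206-35476617 with R5020 (6.03). Of the POLR3G regions in the window, 28 of 45 with vehicle and 28 of 49 with R5020 lay in the downstream flank. Both FKBP5 promoter windows overlapped a POLR3G region in both treatments. At the distal start the R5020 list held chr6:35726568-35729288 (4.44), and the vehicle list held 2 regions within 2 kb (2.57 and 3.64). At the proximal start were chr6:35688646-35689085 with vehicle (4.40) and chr6:35688218-35689032 with R5020 (3.67). With 1 R5020 library tagged ethanol, these treatment labels are uncertain.

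Vehicle PR was seen at 5 of the 81 R5020 regions (6.17%, 2.03 to 13.8), against 3.4% of all, which lies within the interval. The window edges were arbitrary. Just outside the downstream edge lay a PR region with a fold of 19.3, and just inside it one with 22.5. At the upstream edge the values were 4.95 outside and 3.77 inside.

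Among 20037 protein-coding genes with windows built in the same way, FKBP5 had more R5020 PR regions than 99.6%, and 79 genes had more. The median gene had 21. Per 100 kb of window FKBP5 had 22.8 against a median of 8.48, above 98.7% of genes. Because FKBP5 was selected on these regions, both places are descriptions with no test. R5020 PR regions that also overlapped R5020 Maf1 and H3K27Ac numbered 15, against a median of 2, and 72.5% of genes had at least 1. For vehicle PR, 93.8% of genes had fewer than its 5.

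Genes related to FKBP5 by family or pathway were described from 3 lists. Of the other 17 immunophilin genes of the FKBP family, the median was 22 R5020 PR regions, close to that of all genes, with a range from 1 to 36. FKBP4, which encodes the related co-chaperone FKBP52, had 24. The 22 other genes for steroid receptors and their chaperones had a median of 27 and a range from 19 to 105. ESR1, the estrogen receptor gene, was the highest, PGR itself had 49 and NR3C1, the glucocorticoid receptor gene, had 43. The 20 steroid-responsive genes had a median of 33 and ranged from 9 to 80. The highest was GREB1, an estrogen-responsive gene, with MYC at 50, the clock gene PER1 at 39 and SGK1, a kinase gene, at 18. FKBP5, at 81, was above every member of its family and every steroid-responsive gene listed, by 1 region in the case of GREB1. The gene was selected on these regions, so this place is a description with no test. Its window of 355 kb was also longer than those of the family, of which FKBP15 had the next longest, 260 kb. Per 100 kb of window, MYC had 24.1 and was above the 22.8 of FKBP5. PR regions with both Maf1 and H3K27Ac occurred at 15 of the 17 family genes, 20 of the 22 receptor and chaperone genes and 17 of the 20 steroid-responsive genes.

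Genes with the most similar profile were found by the Euclidean distance over 16 lists of log2(1 + regions per 100 kb of window). Among 20025 genes whose windows did not touch that of FKBP5 the median distance was 5.24. The nearest were ADHFE1 (0.755), CFAP68 (0.859), PTGR2 (0.907), CRYAB (0.913) and HSPB2 (0.940). CFAP68, CRYAB and HSPB2 are neighbours on chromosome 11 and share regions. All the nearest genes named here, with R5020 PR counts of 41 to 52, had shorter windows than FKBP5.

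The other RefSeq genes in the window were TULP1, CLPSL2, CLPS, LOC124901309, LINC03135, LOC124901310, RPS15AP19, RPL36P9, LOC124900228 and MIR5690. Of these, TULP1, a gene expressed in photoreceptors, had 6 R5020 PR regions over its span, CLPSL2 3 and CLPS, the colipase gene, 1. The microRNA gene MIR5690 and the snoRNA gene LOC124900228, both inside FKBP5, had no PR region over their spans.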

How the data were processed

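T47D cells were profiled by ChIP-seq with 8 antibodies and 2 treatments, in 48 ChIP and 6 input libraries. The submitters' processing notes name cutadapt, Bowtie2, MACS2 and hg38, without settings. How the 3 libraries of a group were combined is not given in the sources used here. For each region the authors deposited a fold enrichment, which is a ratio, a -log10 q-value (lowest 1.30), and a summit offset in bases, which is another kind of value. Depth is unknown. The grouping of samples followed the titles.

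Regions on chromosomes 1 to 22, X and Y were used. Sharing needed at least 1 bp. Overlap counting was tested on simulated data. Intervals are exact binomial at 95%. Gene spans and promoters came from RefSeq tables of GRCh38.p14, without exons. Python 3.11.15, numpy 2.4.6, pandas 2.3.3, scipy 1.17.1 and matplotlib 3.10.9 were used.

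The members, lists and tests were chosen with earlier results of these data known. The rule for naming regions took all regions of a list with at most 10 in the window, otherwise the 10 of highest -log10 q (5 for H3K27Ac). For POLR3G fewer are printed. GC, CCAAT and TATA boxes and the comparison of acetylated length were added after the values were seen.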

Additional observations from a re-analysis of the deposited data

How the results depend on the processing

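Of the values recomputed, 37 stayed within 1.5 times the count or ratio, or within an interval, and 35 moved further. The interval was that of the share, except for the median percentile of the R5020 PR regions. For that median it ran from 37.5 to 87.2, percentiles of single regions among the 81, which is a wide range. With equal numbers of top regions in both lists (6663 for PR, 3049 for Maf1), R5020 PR regions numbered 8 against 5 with vehicle. Maf1 regions numbered 5 against 4. The shares of these 8 PR regions with R5020 Maf1, R5020 H3K27Ac and vehicle H3K27Ac were 50%, 87.5% and 50%. Among all 6663 top R5020 PR regions they were 36.5%, 82.9% and 68.4%, each within the interval of the 8. If sharing needed 50% of each region, the same shares of the 81 regions were 4.94%, 6.17% and 6.17%, against 2.89%, 4.80% and 4.04% of all. With summits within 250 bp, the H3K27Ac shares were 7.41% with R5020 and 8.64% with vehicle, the opposite order to that by overlap, and at 50% sharing they were equal. Among all R5020 PR regions the shares by summits were 11.6% and 10.0%. With 50 kb flanks, PR regions numbered 53 (R5020) and 2 (vehicle), Maf1 15, and H3K27Ac 34 (R5020) and 25 (vehicle). In the gene span alone these were 39, 1, 9, 22 and 12. The H3K27Ac shares there were 41.0% (R5020) and 12.8% (vehicle), against 28.7% and 26.0% of all R5020 PR regions. At a -log10 q of at least 5, H3K27Ac regions numbered 23 (vehicle) and 34 (R5020), and the R5020 share was 41.3%, against 22.6% of all. At a fold of at least 5, Maf1 regions numbered 14, H3K27Ac 13 and 14, and the R5020 share was 33.3%, against 19.5% of all. The place among genes was 98.7% per 100 kb and 98.8% with 50 kb flanks. Fewer regions or a shorter window account for the lower counts by construction. For the other moved values the cause was not tested.

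No paired analysis was possible because each list stands for 3 libraries and carries no replicate. For the same reason no replicate was left out. The motif search in 250 bases around summits was not run, since no genome sequence was used here. Unknown depth limits every comparison of list lengths.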

Other observations

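PR-free stretches also occurred at FKBP5. The longest gap between R5020 PR regions was 26.4 kb, chr6:35738216-35764623, just upstream of the cluster at the distal start, against a median gap of 1906 bp. Between the starts, chr6:35692113-35710453 held none over 18.3 kb. The 28 H3K27Ac regions found with R5020 only had folds from 2.33 to 5.93, 10 of them above the median of their list, 3.74, and 13 of them overlapped an R5020 PR region. The 9 with vehicle only had folds from 2.05 to 3.37, and 0 of them did. How often regions of these kinds overlap R5020 PR over the genome was not counted. Whether the contrast is particular to FKBP5 was therefore not tested. Of the vehicle H3K27Ac regions 79.1% were also in the R5020 list (67.2% over the genome), and of the R5020 regions 52.5% were also in the vehicle list (58.3% over the genome).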
